A study of Homo sapiens with 21 samples.

Results

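The polo-like kinases are a family of serine/threonine kinases that share a polo-box region next to the kinase domain. Their 4 genes PLK1, PLK2, PLK3 and PLK4 were taken by symbol from the deposited table of 23368 genes. All 4 were found in it and all 4 varied between libraries. The choice was by name and set no limit on any value. The symbol of PLK5, a relative that lacks a working kinase domain in humans, was also listed.

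The members divide labour over the cell cycle. PLK1 is the mitotic kinase that switches on cyclin B-CDK1 at entry into mitosis, builds the spindle poles and later prepares cytokinesis. PLK4 starts the assembly of new centrioles, and its protein destroys itself by marking itself for ubiquitination. PLK2 (also SNK) and PLK3 (also FNK) are known as early-response genes that growth factors and stress can induce, and both are described as targets of p53. The values below are of mRNA and say nothing of kinase activity, which phosphorylation and protein turnover also set.

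RNA was sequenced from hTERT-HPNE, an immortalized pancreatic cell line that is not transformed, grown in serum medium with EGF and puromycin. There were 7 groups of 3 biological replicates: untreated cells at 0 h, cells 4, 8 or 24 h after 300 µM H2O2, an oxidant, and cells at the same times after 400 ng/ml NCS. NCS is neocarzinostatin, which breaks both strands of DNA. The study set these stresses side by side to ask how cells respond differently to double-strand breaks and to oxidative damage. One line was used, so no spread between donors is covered. The medium was renewed when the agents were added, and every treated group was set against the same 3 untreated libraries of 0 h. A change brought by an agent and one brought by hours in fresh medium cannot be told apart in those comparisons, while H2O2 and NCS can be compared at equal times.

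Values are DESeq2 rLog values, which are log2-like, scaled to library size and shrunken towards the mean of a gene. The shrinkage is strongest in genes with few reads. The deposited values hold no counts, so the depth of the libraries is unknown. Medians of the libraries ran from 7.14 to 7.19. limma compared the groups over 19694 genes, and a gene passed at an adjusted p under 0.05. It was called differentially expressed if the difference was also over 1. In bulk RNA, fewer cells in a phase of the cycle and less RNA per cell cannot be told apart.

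The line was checked against marker genes. Nestin (NES) lay between 11.78 and 12.28 and vimentin (VIM) between 16.79 and 17.25 in all 21 libraries. Of the duct markers, KRT18 (11.38 to 11.85), KRT8 (7.73 to 8.28), KRT7 (6.61 to 7.17) and SOX9 (5.78 to 6.48) were expressed, while KRT19 (0.58 to 0.73) was near silence. The acinar gene PRSS1, the insulin gene INS and the T cell gene CD3E were listed at 0 in every library, and CPA1, AMY2A, GCG, CHGA and CDH5 lay below 0. PTPRC reached 0.98, PECAM1 2.42 and VWF 3.41. CD68, a lysosomal protein gene also counted as a macrophage marker, lay between 9.93 and 10.57.

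One library stood apart. H2O2 8 h replicate 2 lay at a distance of 13.81 (square root of summed squared log2 differences over all tested genes) from the mean of its 2 partners, against 7.84 to 11.2 for the other 20 libraries. Along the change of its partners from untreated cells it had moved 67.3% as far, while treated libraries of other groups had moved 91.2% to 101%. Its partners had moved 113% and 114%, against a mean that includes replicate 2. Their distances of 10.8 and 11.2 were also taken from such a mean. All 4 kinases lay closer to the untreated level in replicate 2 than in its partners. The differences, ratios, shares, order and correlations of the kinases that use this group are given with and without it, and the counts of the gene lists that use it in 1 paragraph. The genes most like each kinase were read with all libraries.

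The promoters are shown first. PLK1 and PLK4 moved together below and apart from PLK2 and PLK3, and a link between the promoters and these changes was not tested. RefSeq windows (GRCh38.p14) from 250 bases before to 50 bases after the start were searched on both strands. The cell cycle genes homology region (CHR) was searched as TTTGAA or, in a second form, as TTTAAA. The other motifs were the CCAAT box, the GC box GGGCGG, the cAMP response element as the core TGACG or, with the core inside it, as the full TGACGTCA, the AP-1 site TGANTCA, the E2F site TTTNNCGC and the E-box CACGTG. The TATA box was searched as TATAAA or, in a second form, as TATATAA, and the CArG box of serum response factor and the p53 decamer were searched too. Printed in full are the stretches of PLK1 and PLK4 before the most upstream start of a protein-coding transcript in GENCODE v29, with CHR, CCAAT, GC box and E-box matches in capitals. The first lies at chr16:23678639-23678821 on the plus strand, bases -250 to -68 from the RefSeq start, and the second at chr4:127880643-127880860 on the plus strand, bases -250 to -33.
PLK1: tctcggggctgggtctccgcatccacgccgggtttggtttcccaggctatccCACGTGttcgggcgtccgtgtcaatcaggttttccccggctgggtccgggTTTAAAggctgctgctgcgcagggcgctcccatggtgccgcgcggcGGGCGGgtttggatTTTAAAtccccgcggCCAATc
PLK4: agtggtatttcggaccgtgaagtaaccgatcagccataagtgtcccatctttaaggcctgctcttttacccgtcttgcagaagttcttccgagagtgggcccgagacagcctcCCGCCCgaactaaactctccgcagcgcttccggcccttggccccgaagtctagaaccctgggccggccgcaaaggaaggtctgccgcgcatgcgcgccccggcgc

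Around the start, 30-base stretches carry the matches that differ between the members, in capitals. They are the TTTGAA of PLK1 (chr16:23678848-23678877, plus strand), the same element on the opposite strand of PLK4 (chr4:127880913-127880942, read on the plus strand), and the p53 decamer and TATATAA of PLK2 (chr5:58460199-58460228 and chr5:58460098-58460127, minus strand).
PLK1 CHR: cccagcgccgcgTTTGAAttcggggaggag
PLK4 CHR: ggcaagcggcgggagattTTCAAAatggga
PLK2 p53 decamer: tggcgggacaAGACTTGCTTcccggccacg
PLK2 TATA: ccgcctccccgTATATAAgacttcgccgag

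PLK1 held TTTGAA at bases -29 to -24, TTTAAA at -148 to -143 and -88 to -83, CCAAT at -73 to -69, a GC box and CACGTG. PLK4 held TTTGAA at 39 to 44 after the start, a GC box and TGACG. PLK2 held the p53 decamer at -132 to -123, TATATAA at -30 to -24, TGACG and a pair of GC boxes, and PLK3 held GC boxes alone, at -80 to -75 and at 43 to 48. Of 35116 windows, 15.2% held TTTGAA, 12.2% TTTAAA, 34.6% CCAAT, 45.0% the GC box, 24.6% TGACG and 7.26% CACGTG. The decamer was in 6.63%, TATATAA in 2.57% and TATAAA in 11.5%. TGACGTCA (1.85%), TGANTCA (7.71%), TTTNNCGC (6.89%), TATAAA and the CArG box (1.29%) were found in none of the 4 windows. These matches describe letters and not bound sites.

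In GENCODE v29 (GRCh38), PLK1 spans chr16:23677656-23690367, PLK3 chr1:44800225-44805990 and PLK4 chr4:127880861-127899195 on the plus strand, and PLK2 chr5:58453982-58460260 on the minus strand. ERN2 and the antisense gene AC008870.3 overlap PLK1 from the opposite strand, and ERN2 lay between 0.78 and 1.01. RNU6-583P, a small nuclear RNA gene, overlaps PLK4 on the same strand. AC008870.3 and RNU6-583P were not among the genes tested. TCTEX1D4 overlaps PLK3 from the opposite strand and lay between 5.21 and 5.28 in untreated libraries and between 5.44 and 5.98 in treated ones. The libraries were stranded, but the strand setting of the counting is not given in the sources used here, so a share of one gene's reads in the other was not tested.

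To compare the kinases with each other, log2 of the length of the longest coding transcript in kb was subtracted from the rLog value. In untreated cells PLK1 then led with 10.61, followed by PLK3 with 8.44, PLK4 with 7.83 and PLK2 with 7.82. After 24 h of NCS the order was PLK3 with 9.20, PLK2 with 8.44, PLK1 with 7.74 and PLK4 with 5.89. After 24 h of H2O2, PLK3 led with 9.25, PLK1 and PLK2 both stood at 8.31 and PLK4 at 6.06. The family's most abundant mRNA per length was thus PLK1 before treatment and PLK3 a day after either agent. PLK5 stayed between 0.65 and 0.85 in all 21 libraries.

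Against untreated cells, PLK1 and PLK4 fell and PLK2 and PLK3 rose in all 6 treated groups, and no treated library overlapped the untreated ones for any of them. In each of the 24 comparisons the two-sided exact permutation p was 0.1, the smallest that 3 libraries against 3 allow. By the limma adjusted p, 2 kinases passed in each direction at each time. The background was large. After 4 h of H2O2, 26.2% of all genes passed higher and 19.7% lower, after 8 h 18.8% and 18.6%, and after 24 h 20.2% and 19.9%. After 4 h of NCS, 7.47% passed higher and 9.72% lower, after 8 h 10.5% and 13.3%, and after 24 h 19.6% and 18.4%.

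Fewer genes exceeded a difference of 1. In H2O2, PLK2 was differentially expressed at 4 h, where 0.655% of all genes were so and higher. PLK2 and PLK3 (higher, 0.320% of genes) and PLK1 (lower, 0.198%) were so at 8 h, and PLK1 and PLK4 (lower, 1.29%) at 24 h. In NCS, PLK2 and PLK3 (higher, 0.0914%) and PLK1 (lower, 0.127%) exceeded it at 4 h, PLK1 (lower, 0.274%) at 8 h, and PLK1 and PLK4 (lower, 1.37%) at 24 h. Without H2O2 8 h replicate 2, the same count of 3 kinases exceeded it in that group. At a lower limit of 0.58 in either direction, 2 kinases were called at 4 h of H2O2 (2.91% of all genes), 4 at 8 h (2.44%) and 3 at 24 h (4.56%). In NCS the counts were 3 (1.00%), 4 (1.29%) and 4 (3.97%).

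**Figure D1:**
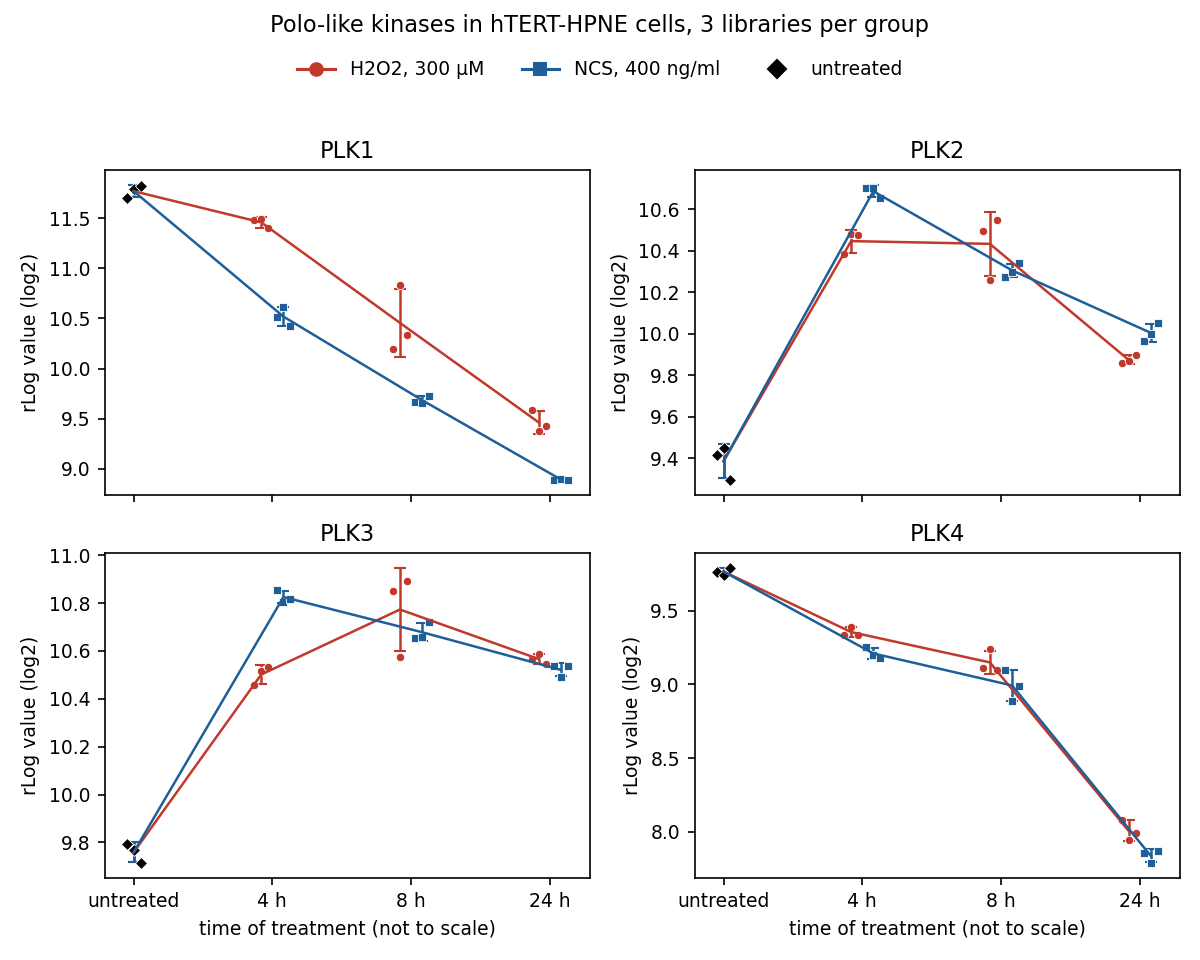
rLog values (log2 scale, vertical axes) of PLK1, PLK2, PLK3 and PLK4 in untreated cells and at 4, 8 and 24 h of H2O2 (red circles) or NCS (blue squares). Points are single libraries, lines join group means and bars are SD over 3 libraries. PLK1 and PLK4 end below the untreated level and PLK2 and PLK3 above it, and the red point nearest to untreated cells at 8 h is replicate 2.

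PLK1 fell furthest. It read 11.70, 11.79 and 11.82 in the untreated libraries. After H2O2 it read 11.48, 11.49 and 11.40 at 4 h, then 10.20, 10.84 and 10.33 at 8 h, then 9.59, 9.38 and 9.42 at 24 h. The 8 h group was the widest, with its replicate 2 above both partners, and the 3 times did not overlap each other. The differences from untreated cells were -0.31 (SE 0.105, limma adjusted p = 0.0214), -1.31 (adjusted p = 1.86e-08) and -2.30 (adjusted p = 2.05e-12) in that order. Without replicate 2 the 8 h value was -1.50. The 4 h call did not hold without untreated replicate 2 (-0.30, adjusted p = 0.0561), untreated replicate 3 (-0.29, adjusted p = 0.0658) or H2O2 4 h replicate 3 (-0.28, adjusted p = 0.0709).

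In NCS the loss of PLK1 mRNA was earlier. The libraries read 10.51, 10.62 and 10.43 at 4 h, then 9.67, 9.66 and 9.73 at 8 h, then 8.89, 8.90 and 8.89 at 24 h. The 3 libraries at 24 h were nearly identical (SD 0.0075). The differences were -1.25 (SE 0.105, limma adjusted p = 1.01e-07), -2.08 (adjusted p = 7.82e-11) and -2.87 (adjusted p = 9.41e-14), a 7.33-fold fall on the rLog scale at the last time. The last 2 were the lowest differences of all 19694 genes, and the first was at place 12. In H2O2, PLK1 stood at places 948, 3 and 5 from the lowest.

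PLK4 also fell, by more after 8 h than before. It read 9.76, 9.75 and 9.79 in untreated cells. After H2O2 the libraries read 9.34, 9.39 and 9.34 at 4 h, then 9.11, 9.24 and 9.10 at 8 h, then 8.08, 7.94 and 7.99 at 24 h. After NCS they read 9.25, 9.20 and 9.18, then 9.10, 8.89 and 8.99, then 7.85, 7.79 and 7.87. No 2 times of one agent overlapped. The differences from untreated cells were -0.41, -0.62 and -1.76 in H2O2 and -0.56, -0.77 and -1.93 in NCS (SE 0.049, limma adjusted p between 1.07e-15 and 1.64e-06). Without H2O2 8 h replicate 2 the 8 h value was -0.66.

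The time course of the fall differed between PLK1 and PLK4. At 8 h PLK1 had made 57.0% of its 24 h change in H2O2 and 72.5% in NCS, and PLK4 35.0% and 40.1%. At 4 h the shares in H2O2 were 13.5% for PLK1 and 23.3% for PLK4, and in NCS 43.5% and 28.8%. Without H2O2 8 h replicate 2 the 8 h shares in H2O2 were 65.3% for PLK1 and 37.6% for PLK4. Set against each other within a library, PLK1 minus PLK4 was 2.00 ± 0.055 (SD, n = 3) in untreated cells. It was 2.10 ± 0.040 at 4 h of H2O2, 1.31 ± 0.26 at 8 h and 1.46 ± 0.044 at 24 h. In NCS it was 1.31 ± 0.092, then 0.69 ± 0.11 and then 1.06 ± 0.051. None of the 6 treated groups overlapped the untreated libraries, and the two-sided exact permutation p was 0.1 in each, the smallest possible. After 4 h of H2O2 the value was 0.10 above that of untreated cells, and in the other 5 treated groups it was below it. Without replicate 2 the 8 h value in H2O2 was 1.16 ± 0.10 (SD, n = 2).

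PLK2 rose early and then came down. It read 9.42, 9.45 and 9.29 in untreated cells. After H2O2 it read 10.38, 10.48 and 10.47 at 4 h, then 10.49, 10.26 and 10.55 at 8 h, then 9.86, 9.87 and 9.90 at 24 h. The 4 and 8 h libraries overlapped, and those at 24 h lay between them and the untreated ones. The differences were 1.06 (SE 0.055, limma adjusted p = 3.75e-11), 1.05 (adjusted p = 1.51e-10) and 0.49 (adjusted p = 6.88e-07). Without replicate 2 the 8 h value was 1.13.

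NCS gave PLK2 its highest level at 4 h. The libraries read 10.70, 10.70 and 10.65 at 4 h, then 10.28, 10.30 and 10.34 at 8 h, then 9.96, 10.00 and 10.05 at 24 h. These 3 groups did not overlap each other. The differences were 1.30 (SE 0.055, limma adjusted p = 1.22e-11), 0.92 (adjusted p = 7.18e-10) and 0.62 (adjusted p = 3.25e-08). The 4 h value was the 9th highest of all genes tested. At 24 h, 46.0% of the 4 h rise remained in H2O2 and 47.5% in NCS.

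PLK3 kept most of its rise. It read 9.79, 9.77 and 9.71 in untreated cells. After H2O2 it read 10.46, 10.51 and 10.53 at 4 h, then 10.85, 10.57 and 10.89 at 8 h, then 10.57, 10.59 and 10.54 at 24 h. Replicates 1 and 3 at 8 h held the 2 highest values of H2O2-treated cells, with replicate 2 at the level of the 24 h libraries. The differences were 0.74 (SE 0.055, limma adjusted p = 3.57e-09), 1.01 (adjusted p = 1.95e-10) and 0.81 (adjusted p = 5.70e-10), and the 8 h value was 1.11 without replicate 2.

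After NCS, PLK3 read 10.85, 10.80 and 10.82 at 4 h, then 10.66, 10.66 and 10.72 at 8 h, then 10.54, 10.49 and 10.54 at 24 h. The times did not overlap. The differences were 1.07 (SE 0.055, limma adjusted p = 1.66e-10), 0.92 (adjusted p = 6.37e-10) and 0.76 (adjusted p = 1.47e-09), and the first was the 17th highest of all genes. At 24 h, 109% of the 4 h rise and 79.6% of the 8 h rise stood in H2O2, and 71.5% of the 4 h rise in NCS. The share of the 8 h rise in H2O2 was 72.5% without replicate 2 of that group.

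PLK2 and PLK3 therefore shifted against each other. PLK2 minus PLK3 within a library was -0.37 ± 0.049 (SD, n = 3) in untreated cells, -0.056 ± 0.020 at 4 h of H2O2, -0.34 ± 0.022 at 8 h and -0.69 ± 0.040 at 24 h. In NCS it was -0.14 ± 0.034, -0.37 ± 0.012 and -0.52 ± 0.049. The 4 h groups lay above the untreated libraries and the 24 h groups below them without overlap (two-sided exact permutation p = 0.1, the smallest possible). The 8 h groups overlapped them (exact permutation p = 0.4 in H2O2 and 1.0 in NCS). Without replicate 2 the H2O2 value was -0.35 (n = 2) and still overlapped. Since rLog values shrink each gene to a different degree, these sizes are not exact ratios.

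**Figure D2:**
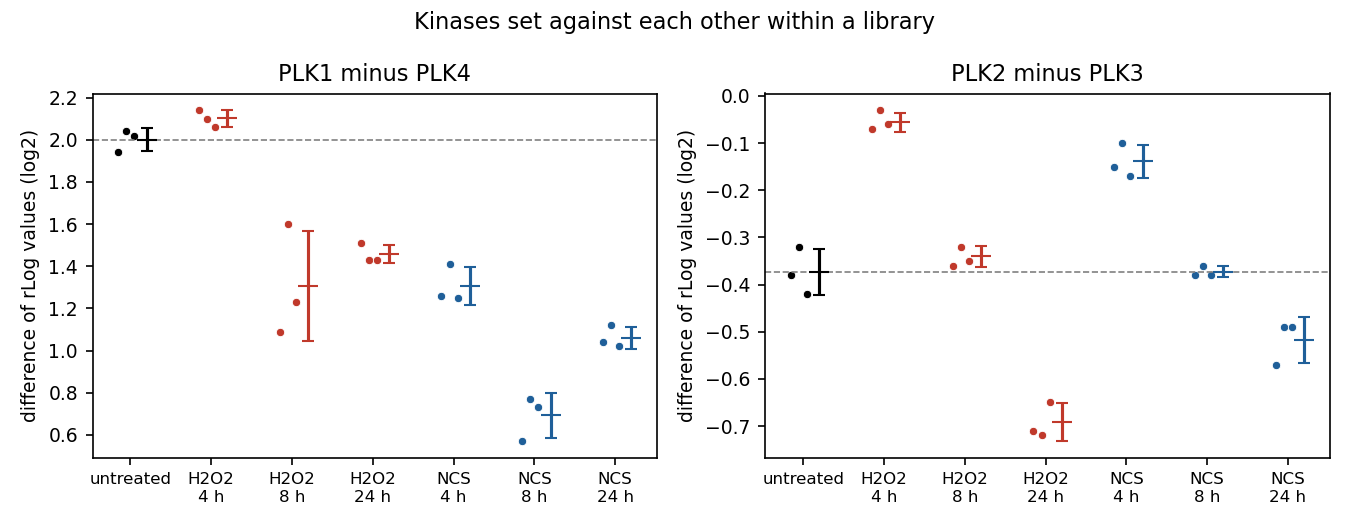
Difference of rLog values (log2, vertical axes) between PLK1 and PLK4 (left) and between PLK2 and PLK3 (right) within each library, by group. Points are libraries, horizontal marks with bars are the mean and SD over 3 libraries, and the dashed line is the untreated mean. PLK1 minus PLK4 drops to 0.69 at 8 h of NCS, and PLK2 minus PLK3 is above the dashed line at 4 h and below it at 24 h of both agents.

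The order of the 7 groups was read from their means. PLK1 ran from untreated (11.77) through H2O2 4 h (11.46), NCS 4 h (10.52), H2O2 8 h (10.46), NCS 8 h (9.68) and H2O2 24 h (9.46) to NCS 24 h (8.89), and only NCS 4 h and H2O2 8 h overlapped as neighbours. PLK4 had the same order, from 9.77 to 7.84, with an overlap at the same place. PLK2 ran from NCS 4 h (10.69) through H2O2 4 h (10.45), H2O2 8 h (10.43), NCS 8 h (10.30), NCS 24 h (10.00) and H2O2 24 h (9.87) to untreated (9.39). H2O2 8 h overlapped both of its neighbours. PLK3 ran from NCS 4 h (10.82) through H2O2 8 h (10.77), NCS 8 h (10.68), H2O2 24 h (10.57), NCS 24 h (10.52) and H2O2 4 h (10.50) to untreated (9.76). In this order H2O2 8 h overlapped both neighbours and NCS 24 h overlapped H2O2 4 h. The order changed for PLK2 and PLK3 without H2O2 8 h replicate 2. H2O2 8 h then stood above H2O2 4 h in PLK2 (10.52) and above NCS 4 h in PLK3 (10.87), where these 2 still overlapped. PLK1 and PLK4 kept their order with H2O2 8 h at 10.26 and 9.10, and neither overlapped NCS 4 h.

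Between the agents at equal times, PLK1 was the kinase with the largest difference. It was higher in H2O2 than in NCS by 0.94 at 4 h (SE 0.105, limma adjusted p = 7.83e-07), then by 0.77 (adjusted p = 1.42e-05) and 0.57 (adjusted p = 0.00055). PLK4 was higher in H2O2 by 0.15 (adjusted p = 0.0214), 0.16 (adjusted p = 0.0182) and 0.17 (adjusted p = 0.0167). PLK2 was lower in H2O2 by 0.24 at 4 h, a difference of -0.24 (adjusted p = 0.00161), and PLK3 likewise with -0.32 (adjusted p = 8.86e-05). At 4 h, then, 2 kinases passed higher and 2 lower, where 26.3% of all genes passed higher and 18.0% lower.

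At 8 h PLK1 and PLK4 passed higher (18.7% of all genes) and none lower (15.4%), and at 24 h again PLK1 and PLK4 higher (11.0%) and none lower (10.9%). PLK2 differed by 0.13 at 8 h (95% interval 0.01 to 0.24, limma adjusted p = 0.0869) and by -0.13 at 24 h (-0.25 to -0.01, adjusted p = 0.111). PLK3 differed by 0.09 (-0.02 to 0.21, adjusted p = 0.211) and 0.05 (-0.07 to 0.16, adjusted p = 0.687). Of the 8 h calls, those of PLK2, PLK3 and PLK4 but not that of PLK1 turned on H2O2 8 h replicate 2. Without it PLK2 (0.21 higher in H2O2, adjusted p = 0.000476) and PLK3 (0.20, adjusted p = 6.21e-05) passed, PLK4 did not (0.11, adjusted p = 0.0988), and PLK1 was 0.58 higher (adjusted p = 6.85e-07). PLK4 also lost its call at 4, 8 and 24 h when certain other single libraries were left out, with adjusted p of up to 0.0794, 0.123 and 0.096.

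**Figure D3:**
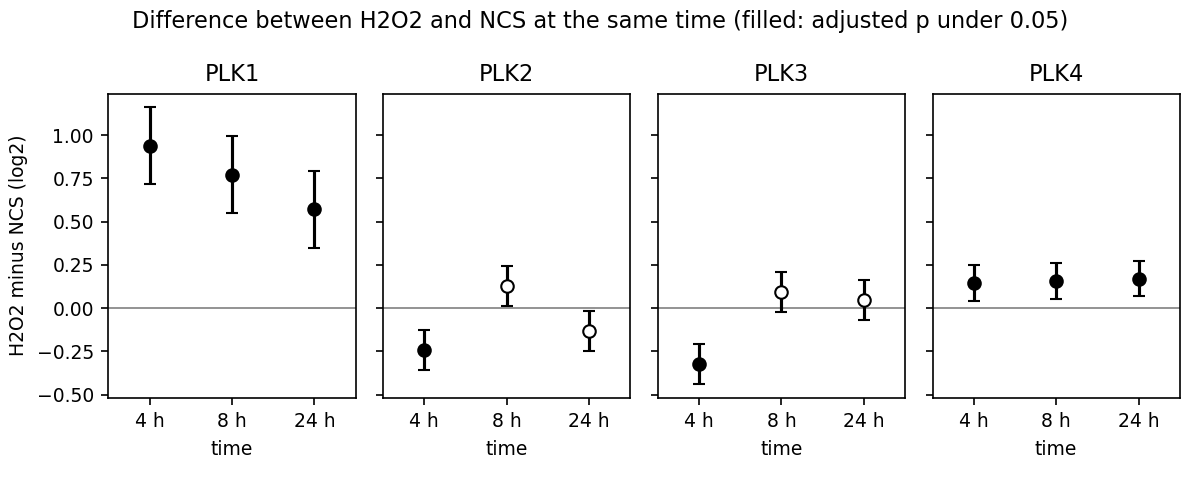
log2 difference between H2O2 and NCS at 4, 8 and 24 h for each kinase (vertical axis, H2O2 minus NCS of the means of 3 libraries each), with the 95% interval from limma. Filled points passed at an adjusted p under 0.05. PLK1 goes from 0.94 to 0.57, PLK4 stays between 0.15 and 0.17, and PLK2 and PLK3 pass at 4 h alone.

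From 4 to 8 h of H2O2, PLK1 fell by 1.00 (limma adjusted p = 3.98e-07) and PLK4 by 0.21 (adjusted p = 0.002), and PLK3 rose by 0.27 (adjusted p = 0.000486). PLK2 differed by -0.01 (95% interval -0.13 to 0.10, adjusted p = 0.902). The background was 18.0% of genes higher and 27.7% lower. Without replicate 2 these 4 values were -1.19, -0.25, 0.37 and 0.07, with the same calls. From 8 to 24 h of H2O2 all 4 kinases fell, where 23.2% of genes did so. PLK1 fell by 0.99, PLK2 by 0.56, PLK3 by 0.21 (limma adjusted p = 0.00462) and PLK4 by 1.14. The PLK3 libraries of these times overlapped (two-sided exact permutation p = 0.2), and those of PLK1, PLK2 and PLK4 did not. Without replicate 2 the falls were 0.80, 0.65, 0.31 and 1.10, again with the same calls.

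From 4 to 8 h of NCS, PLK1 fell by 0.83 (limma adjusted p = 2.46e-05), PLK2 by 0.38 (adjusted p = 0.000102) and PLK4 by 0.22 (adjusted p = 0.00498), where 7.50% of genes passed lower. PLK3 differed by -0.15 (95% interval -0.26 to -0.03, adjusted p = 0.0894). From 8 to 24 h all 4 fell, where 15.0% of genes did: PLK1 by 0.79, PLK2 by 0.30, PLK3 by 0.16 and PLK4 by 1.16. For PLK3 the adjusted p was 0.0366, and it rose to between 0.0565 and 0.13 with any 1 of the 6 libraries left out.

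Whether the signed difference H2O2 minus NCS changed with time was tested as an interaction. From 4 to 8 h it rose by 0.37 in PLK2, from -0.24 to 0.13 (limma adjusted p = 0.00132). In PLK3 it rose by 0.42, from -0.32 to 0.09 (adjusted p = 0.000394). Over this step 14.7% of genes passed higher. From 8 to 24 h it changed by -0.26 in PLK2 (adjusted p = 0.0241, 11.8% of genes lower). From 4 to 24 h it rose by 0.37 in PLK3, from -0.32 to 0.05 (adjusted p = 0.000908, 16.6% of genes higher). PLK1 did not pass from 4 to 24 h (-0.37, 95% interval -0.68 to -0.06, adjusted p = 0.0579). For PLK4 the 3 values lay between 0.011 and 0.025, and their intervals within -0.13 and 0.17. Without H2O2 8 h replicate 2, PLK1 passed from 4 to 8 h (-0.36, adjusted p = 0.00205), where all libraries gave -0.17 (adjusted p = 0.436), and PLK3 passed from 8 to 24 h (-0.15, adjusted p = 0.0112), where all libraries gave -0.05 (adjusted p = 0.728).

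Over the 7 group means, PLK1 and PLK4 had a Pearson correlation of 0.91 and PLK2 and PLK3 of 0.874. Across the pairs it was -0.521 for PLK1 and PLK3, -0.352 for PLK3 and PLK4, -0.101 for PLK1 and PLK2 and 0.067 for PLK2 and PLK4. The 7 points share their libraries and the single untreated group sets much of each value, so these are descriptions. With H2O2 8 h replicate 2 left out, the 6 values lay between -0.524 and 0.904, with 0.88 for PLK2 and PLK3. Among 3335 genes whose group means spanned at least 0.5, the 5 most like PLK1 were NEK2 (r = 0.9988), CCNB2 (0.9980), DEPDC1 (0.9975), CDC20 (0.9923) and CCNB1 (0.9898). For PLK4 they were SGOL1 (0.9978), AURKB (0.9961), WDR62 (0.9953), GSG2 (0.9950) and MKI67 (0.9949). For PLK2 they were INHBA (0.982), SERTAD1 (0.9508), CRISPLD2 (0.9347), ZNF79 (0.9341) and PPM1D (0.9248), and for PLK3 BTG2 (0.9835), SESN1 (0.9815), FAS (0.9777), TRIAP1 (0.9713) and MDM2 (0.9702).

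Genes that work with each kinase were read from lists, with members counted at an adjusted p under 0.05 from limma. The median difference of all genes tested was within 0.01 of 0 in each of the 6 comparisons with untreated cells and within 0.01 in those between the agents. The share of genes that passed is the background given above for each comparison. Without H2O2 8 h replicate 2, the lower counts at 8 h of H2O2 went from 12 to 13 of 15 docking partners of PLK1 and from 13 to 14 of 16 centriole genes. The higher counts went from 2 to 3 among the partners of PLK2 and PLK3, from 8 to 9 immediate-early genes, and from 0 to 1 in the turnover list of PLK4. The others were the same against untreated cells. The medians moved from -0.89 to -1.01 for the genes of mitotic entry, from -0.71 to -0.78 for the docking partners and from 1.11 to 1.21 for the p53 targets.

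PLK1 acts at mitotic entry with 10 listed genes, and all 10 were lower at 24 h of either agent. Their median difference from untreated cells then was -1.58 for H2O2 and -1.75 for NCS. The largest falls, read after 24 h of NCS, were those of CCNA2, cyclin A2 (-2.46), AURKA, the kinase that activates PLK1 (-2.10), and the mitotic cyclins CCNB2 (-1.99) and CCNB1 (-1.92). After 4 h of NCS 9 of 10 were lower and 1 higher (median -0.83), led by AURKA (-1.63). By then in H2O2 8 were lower and none higher (median -0.39), led by BORA, the cofactor of AURKA (-0.61), and CCNA2 (-0.58). At 8 h all 10 were lower in both agents (medians -0.89 and -0.97).

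The gap between the agents at 4 h was also found in this list. There 8 of 10 genes were higher in H2O2 than in NCS and 1 lower (median 0.39), led by AURKA (1.07), CCNB1 (0.54), CCNB2 (0.52) and CDC25C, a phosphatase that activates CDK1 (0.48). At 8 h 4 were higher and none lower (median 0.14), and without H2O2 8 h replicate 2 these counts were 2 and 1. At 24 h 6 were higher and none lower (median 0.21).

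Of 15 docking partners and substrates of PLK1, 11 were lower at 4 h of either agent, 12 at 8 h and 13 at 24 h. In H2O2 1 was higher at 24 h. The medians went from -0.27 through -0.71 to -1.60 in H2O2 and from -0.49 through -0.77 to -1.68 in NCS. The largest falls at 24 h of NCS were those of KIF20A, a kinesin of the central spindle (-2.87), the checkpoint kinases BUB1B (-2.30) and BUB1 (-2.23), and PRC1, which bundles midzone microtubules (-2.06). KIF20A thus fell by as much as PLK1.

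Other mitotic kinases moved with PLK1. All 10 listed were lower at 8 and 24 h of both agents and at 4 h of NCS, and 8 were lower at 4 h of H2O2. The medians at 24 h were -1.68 in H2O2 and -1.95 in NCS. In NCS at 24 h BUB1 (-2.23), NEK2, a kinase of centrosome separation (-2.21), AURKB, the kinase of the chromosomal passenger complex (-2.14), and AURKA (-2.10) fell most. Between the agents at 4 h, 7 of 10 were higher in H2O2 and none lower, led by AURKA (1.07) and NEK2 (0.76). AURKA, BUB1 and CDK1 are in 2 of these lists each, so the lists are not independent.

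The APC/C, the ubiquitin ligase that ends mitosis and that PLK1 helps to control, was split. Of 9 genes, 6 were lower at 4 and 8 h of both agents and at 24 h of H2O2, and 7 at 24 h of NCS. At 24 h of NCS the mitotic activator CDC20 (-2.58) and the E2 enzymes UBE2C (-2.13) and UBE2S (-1.27) fell most, and FZR1, the activator of G1, fell by 0.30. In NCS 1 gene was higher at each time. The list median stayed between -0.15 and -0.28.

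Around PLK4, 11 of 16 centriole genes were lower and 1 higher at 4 h of H2O2, 13 and 1 at 8 h, and 14 and 1 at 24 h. In NCS 13 were lower at 4 and 8 h with none higher, and 14 lower and 1 higher at 24 h. Medians at 24 h were -0.57 in H2O2 and -0.65 in NCS, smaller than the falls of PLK4 itself (-1.76 and -1.93). The largest falls at 24 h of NCS were those of STIL, which activates PLK4 (-1.56), CENPJ (-1.21), SASS6, the cartwheel protein (-1.08), and CEP152, a scaffold that recruits PLK4 (-0.99). At 24 h of H2O2 the same 4 genes led, with -1.43 for STIL, -1.06 for CENPJ, -0.95 for SASS6 and -0.78 for CEP152. At 4 h of H2O2 the largest fall was that of SASS6 (-0.75), which was 0.50 lower there than in NCS (difference -0.50).

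The genes that turn PLK4 protein over changed little. Of 5 (BTRC, FBXW11, CUL1, SKP1 and TRIM37), between 1 and 2 were lower and up to 2 higher in each comparison with untreated cells. The largest was CUL1, the cullin scaffold, at 24 h of NCS (-0.31). Of 9 known partners and substrates of PLK2 and PLK3, 4 were higher and 4 lower at 24 h of either agent. At 24 h CDC25A, a phosphatase that PLK3 can target (-1.59 in H2O2 and -1.58 in NCS), and CHEK2 (-0.86 and -0.75) fell. After 4 h of NCS 1 of the 9 passed, CHEK2 (-0.26), while PLK2 stood at its highest group mean.

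PLK2 and PLK3 were set beside gene classes they are known to join. Of 16 immediate-early genes, 13 were higher and 2 lower at 4 h of H2O2, led by FOSB (4.88), ATF3 (3.45), NR4A1 (1.94) and JUNB (1.51). After 4 h of NCS 7 were higher and 5 lower, with ATF3 at 1.58, EGR1 at -1.35 and FOS at -0.92. Between the agents at 4 h, 14 of 16 were higher in H2O2 and none lower (median 0.80), while PLK2 and PLK3 were lower in H2O2. At 24 h 3 were higher and 6 lower in H2O2, and 4 higher and 7 lower in NCS. Medians against untreated cells at 4, 8 and 24 h were 0.679, 0.128 and 0.028 in H2O2. In NCS they were 0.087, 0.028 and -0.031.

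All 20 listed p53 targets were higher at every time of NCS and at 8 h of H2O2, 18 were higher and 1 lower at 4 h of H2O2, and 19 higher and 1 lower at 24 h. At 4 h of NCS the list was led by BTG2 (2.10), CDKN1A, the CDK inhibitor p21 (1.58), MDM2, the ligase of p53 (1.55), and BBC3 (1.45). Medians in NCS were 0.93, 0.82 and 0.73 at 4, 8 and 24 h. In H2O2 they were 0.67, 1.11 and 0.89. Between the agents at 4 h, 15 of 20 were lower in H2O2 and 2 higher (median -0.37), beside differences of -0.24 in PLK2 and -0.32 in PLK3. At 8 h 8 were higher and 4 lower, and without H2O2 8 h replicate 2 12 were higher and 3 lower. The order of the medians over time, with NCS highest at 4 h and H2O2 at 8 h, was within each agent that of the PLK3 means. The PLK2 means had this order in NCS but not in H2O2. There they were 10.45 at 4 h, 10.43 at 8 h (10.52 without replicate 2) and 9.87 at 24 h. The PLK3 libraries at 8 and 24 h of H2O2 overlapped through replicate 2 of the 8 h group. Whether PLK2 or PLK3 followed p53 or the immediate-early genes was not tested.

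The DREAM and MuvB complexes repress or activate genes through CHR elements, and the mRNAs of some of their own subunits were lower. Of 13 genes, 6 were lower and none higher at 4 h of NCS, and 11 were lower at 8 and 24 h, with 1 higher at the later time. In H2O2, 8, 11 and 9 were lower and 1 higher at 4, 8 and 24 h. The list medians at these times were small, with -0.135, -0.223 and -0.336 in H2O2 and -0.154, -0.262 and -0.524 in NCS. At 24 h of either agent 4 of the 13 were differentially expressed and lower, beside 1.29% of all genes in H2O2 and 1.37% in NCS. In NCS at 24 h MYBL2 (-1.63) and FOXM1 (-1.48), activators of mitotic genes, RBL1, the repressor subunit p107 (-1.34), and LIN9, a MuvB core subunit (-1.17), fell most. At 4 h of NCS, when PLK1 stood at -1.25, FOXM1 stood at -0.26 and LIN54, the CHR-binding subunit, at -0.36.

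**Figure D4:**
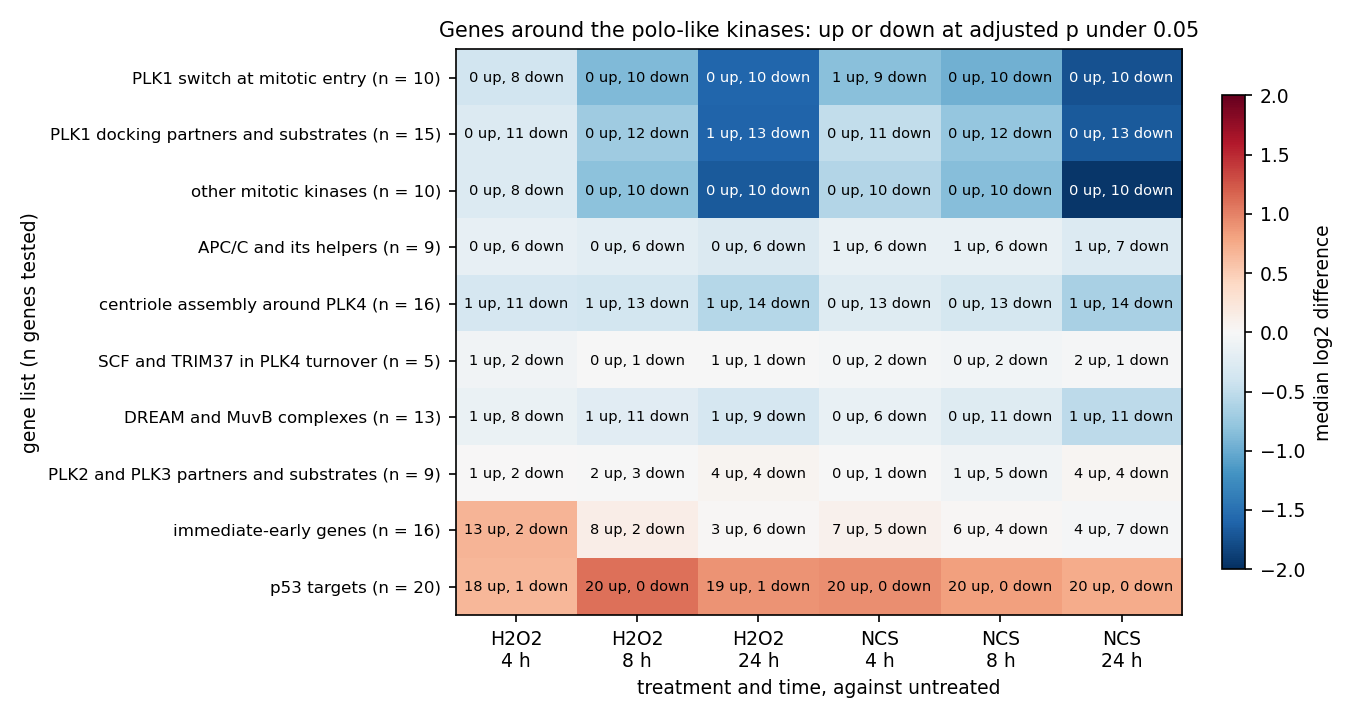
Counts of genes higher (up) and lower (down) than in untreated cells at a limma adjusted p under 0.05, for 10 gene lists (rows, with the number tested) in 6 comparisons (columns). Colour is the median log2 difference of the list. The lists around PLK1 deepen towards 24 h, with medians down to -1.95, and the p53 targets are higher in every column.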

How the data were processed

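Poly(A) RNA libraries (TruSeq Stranded mRNA) of hTERT-HPNE cells were sequenced in 7 groups of 3. The authors aligned reads with HISAT2, counted them with htseq-count in Galaxy and deposited rLog values from DESeq2 on a log2 scale. Per the submitters' processing notes the build was hg19. Tool versions, annotation and strand setting are not given in the sources used here. Depth is unknown, so no counting error was calculated.

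Of 23368 genes, 3674 were at 0 in every library, and 19694 were fitted with limma 3.58.1 (R 4.3.3) in a single model of 7 groups with a variance trend. There were 16 comparisons, each adjusted by Benjamini-Hochberg over all genes. Summaries and figures were made in Python 3.11.15 (scipy 1.17.1, pandas 2.3.3, numpy 2.4.6, matplotlib 3.10.9). The fit was tested on simulated data. Promoters came from RefSeq (GRCh38.p14), with 1 window each for PLK1, PLK2 and PLK3, and the most upstream of 3 for PLK4. Positions came from GENCODE v29.

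The kinases and gene lists were chosen with earlier results of these data known. Named from each list were up to 4 genes with the largest differences that passed in the comparison described, and per kinase the 5 genes most like it. The members of the PLK4 turnover list were named after their values were seen. Single values of some listed genes are not reported here. Older symbols stand for CENPU (MLF1IP), TIGAR (C12orf5) and HASPIN (GSG2). Samples were treated as unpaired, since the labels number the replicates without saying whether numbers match between groups. Same-numbered libraries of different groups had a mean correlation of deviations of 0.0274, and differently numbered ones -0.0137. The alternatives were quantile normalization, aligned medians, only genes with a mean of 5 or more, fits of the compared groups alone, a replicate block, no variance trend, a limit of 0.58, other measures of likeness, and each library left out in turn. List counts, ratios, shares, order and correlations without H2O2 8 h replicate 2 were added after seeing the data.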

Additional observations from a re-analysis of the deposited data

Results flagged for a closer look

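In 4 cases the signed difference H2O2 minus NCS changed with time by a test of the change itself, an interaction in limma over all genes. From 4 to 8 h it changed by 0.37 in PLK2 and by 0.42 in PLK3, where both were lower in H2O2 than in NCS at 4 h and the 8 h difference did not pass. From 8 to 24 h it changed by -0.26 in PLK2, and from 4 to 24 h by 0.37 in PLK3. The PLK2 change from 8 to 24 h did not pass when 1 of 5 single libraries was left out, with adjusted p of up to 0.0708. The other 3 passed without any single library.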

How the results depend on the processing

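Of 64 kinase differences, 366 of 384 values under alternatives that kept every library stayed on the same side of the threshold, as did 429 of 456 with 1 library left out, and 0 values that passed in either fit changed sign. Among differences that passed in neither, 19 values of 5 differences did. Replicate numbers were not taken as pairs, and correlations of same-numbered libraries ran from -0.149 to 0.213. The fit with the replicate block changed none of the 64 calls, with PLK1 at 4 h of H2O2 at limma adjusted p = 0.0214 under it. Median alignment and a mean value of at least 5 made calls of PLK2 in H2O2 against NCS at 8 h (0.15 and 0.13) and 24 h (-0.16 and -0.13), PLK3 in NCS from 4 to 8 h (-0.16 and -0.15) and the PLK1 interaction from 4 to 24 h (-0.39 and -0.37). Fits of the compared groups alone made calls of PLK2 at 24 h (-0.13), PLK3 in NCS from 4 to 8 h (-0.15) and that interaction (-0.37), and lost PLK4 against NCS at 8 h (0.16), PLK3 in H2O2 from 4 to 8 h (0.27) and 8 to 24 h (-0.21) and the PLK2 interaction from 8 to 24 h (-0.26). Quantile normalization lost PLK4 against NCS at 24 h (0.14) and PLK3 in NCS from 8 to 24 h (-0.15), which also failed without the variance trend (-0.16). The cause was not tested.

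With single libraries left out, the range was -0.35 to -0.28 for PLK1 at 4 h of H2O2. For H2O2 against NCS it was 0.13 to 0.17 for PLK4 at 4 h, 0.071 to 0.21 for PLK2, 0.035 to 0.20 for PLK3 and 0.10 to 0.21 for PLK4 at 8 h, and 0.13 to 0.20 for PLK4 at 24 h. It was -0.17 to -0.14 for PLK3 in NCS from 8 to 24 h. For interactions it was -0.36 to -0.040 for PLK1 and 4 to 8 h, -0.35 to -0.20 for PLK2 and -0.15 to 0.011 for PLK3 from 8 to 24 h, and -0.43 to -0.32 for PLK1 from 4 to 24 h.

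At a difference over 0.58, counts of called kinases went from 1 to 2 at 4 h of H2O2, from 3 to 4 at 8 h and from 2 to 3 at 24 h, and in NCS stayed at 3 at 4 h and went to 4 at 8 and 24 h. By Spearman correlation, with ties of the fifth gene kept, 5 of the 5 genes most like PLK1 and 3 of those most like PLK4 were among 101 genes tied at 1, and 2 and 3 were shared for PLK2 and PLK3. Pearson correlation over 21 libraries shared 3 for PLK4.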
